A study of Homo sapiens with 4 samples.

Results

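Interferon-stimulated genes were examined after overexpression of BTG2 in MOLM13, a cell line from human acute myeloid leukaemia. The set was a fixed list of 54 genes chosen by symbol: interferon receptors, the transcription factors they act through, and the proteins that interferon induces. The authors' deposited table of the comparison lists 48 of them among 11597 genes. The other 6, OASL, IFIT1, ISG20, MX1, IFI27 and IFI44L, have no row in that table and were not analysed here.

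Interferons are secreted when a cell senses viral or misplaced nucleic acid. Type I interferons bind the receptor pair IFNAR1 and IFNAR2, and interferon gamma binds IFNGR1 and IFNGR2. JAK kinases on these receptors phosphorylate STAT proteins. STAT2 and IRF9 belong to the complex ISGF3, which binds the interferon-stimulated response element (ISRE), whereas interferon gamma acts largely through the gamma-activated site (GAS). Myeloid cells keep many of these genes at a low tonic level without infection. BTG2 is an antiproliferative protein that brings the CCR4-NOT deadenylase to messenger RNA, and how it bears on mRNA stability is the question the design text names.

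The 4 libraries were 2 with the empty lentiviral vector (genotype WT) and 2 with a BTG2 cDNA in the same vector (genotype BTG2 OE). Both groups were therefore transduced, and no untransduced cells were analysed here. The vector drives its insert from an EF1α promoter together with a puromycin resistance gene and the green fluorescent protein ZsGreen. Poly(A) RNA was taken 3 days after transduction. The labels name neither selection nor sorting of transduced cells. Nothing in them ties the replicates to separate cultures, so the p-values measure only the spread between these samples, which may be technical. In the authors' deposited table BTG2 itself rose, with a log2 fold change of 5.01 (SE 0.09), from reads of the cDNA and the endogenous gene together. Of 12 markers of this cell line all were listed, at mean counts from 71.6 to 6277, with 2 higher and 3 lower. Over all genes 3.64% were higher and 4.47% lower. By the authors' deposited table MPO stood at -1.14 (SE 0.15), LYZ at -0.39 (SE 0.05) and CEBPA at -0.26 (SE 0.05). HOXA9 stood at 0.53 (SE 0.17) and FLT3 at 0.23 (SE 0.07) by the same source. No T cell, B cell, erythroid or fibroblast marker was listed (0 of 4 each). KRT8 and KRT18 among 4 epithelial markers were listed, at mean counts of 58.5 and 421. PECAM1 among 4 endothelial markers was listed at 65.7. None of these epithelial and endothelial markers was called as changed with BTG2.

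Each gene's level is the authors' mean normalized count over the libraries, and each difference is the authors' log2 fold change, negative where BTG2 libraries were lower, with its standard error (SE). No values of single libraries were analysed here. Neither the spread between libraries nor the overlap of the groups is therefore known, and the depth of each library is unknown. A gene was called when the authors' adjusted p was under 0.05. Intervals are 95% normal intervals from the deposited SE.

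Of the 48 listed genes 4 fell with BTG2 and 0 rose. They were IFI16, IFITM2, BST2 and HERC5, and they act at different steps of the response. The share called, 8.33%, was near the background, since 8.11% of all genes were called in either direction, 4.47% lower and 3.64% higher. The count alone therefore does not set these genes apart from the rest. With fold changes recentred on the median of the more abundant genes, those whose mean count reached the median, the balance over all genes went from 422 higher and 518 lower to 500 higher and 433 lower, and 4 members were again called lower. All 4 calls were in 1 direction, and most of the uncalled members also had negative values. In all, 36 of 48 log2 fold changes (75%) were negative, against 49.9% of all genes. The median was -0.17, against 0.00 for all genes. Members were chosen with results of these data known, so these shares are given as a description. At an unadjusted p under 0.05, 11 members (22.9%) were lower and 0 higher, where all genes gave 9.64% lower and 7.92% higher. The 11 were the 4 called genes with OAS2, IFI35, IFI30, IRF1, IRF7, XAF1 and IFNAR2. With the limit of the adjusted p at 0.1, 8 members were lower, against 5.75% of all genes. When tested against an absolute log2 fold change of 0.5 instead of 0, 0 members were lower, against 0.336% of all genes.

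Members' levels spanned mean counts from 10.1 for IFI44 to 2119 for IFITM2. The 25 members at or above the table's median mean count of 151 had a median log2 fold change of -0.08, with 3 called lower (12%, against 7.6% of all genes in that range). The 23 members below it had a median of -0.36, with 1 called lower (4.35%, against 1.33%). Negative values made up 17 of the 25 abundant members and 19 of the 23 scarcer ones. Over all genes in the same ranges the share of negative values was 55.7% and 44.2%. The lower median thus sat among genes of low count, where the SE was largest (median 0.53, against 0.16 for the abundant members).

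**Figure D1:**
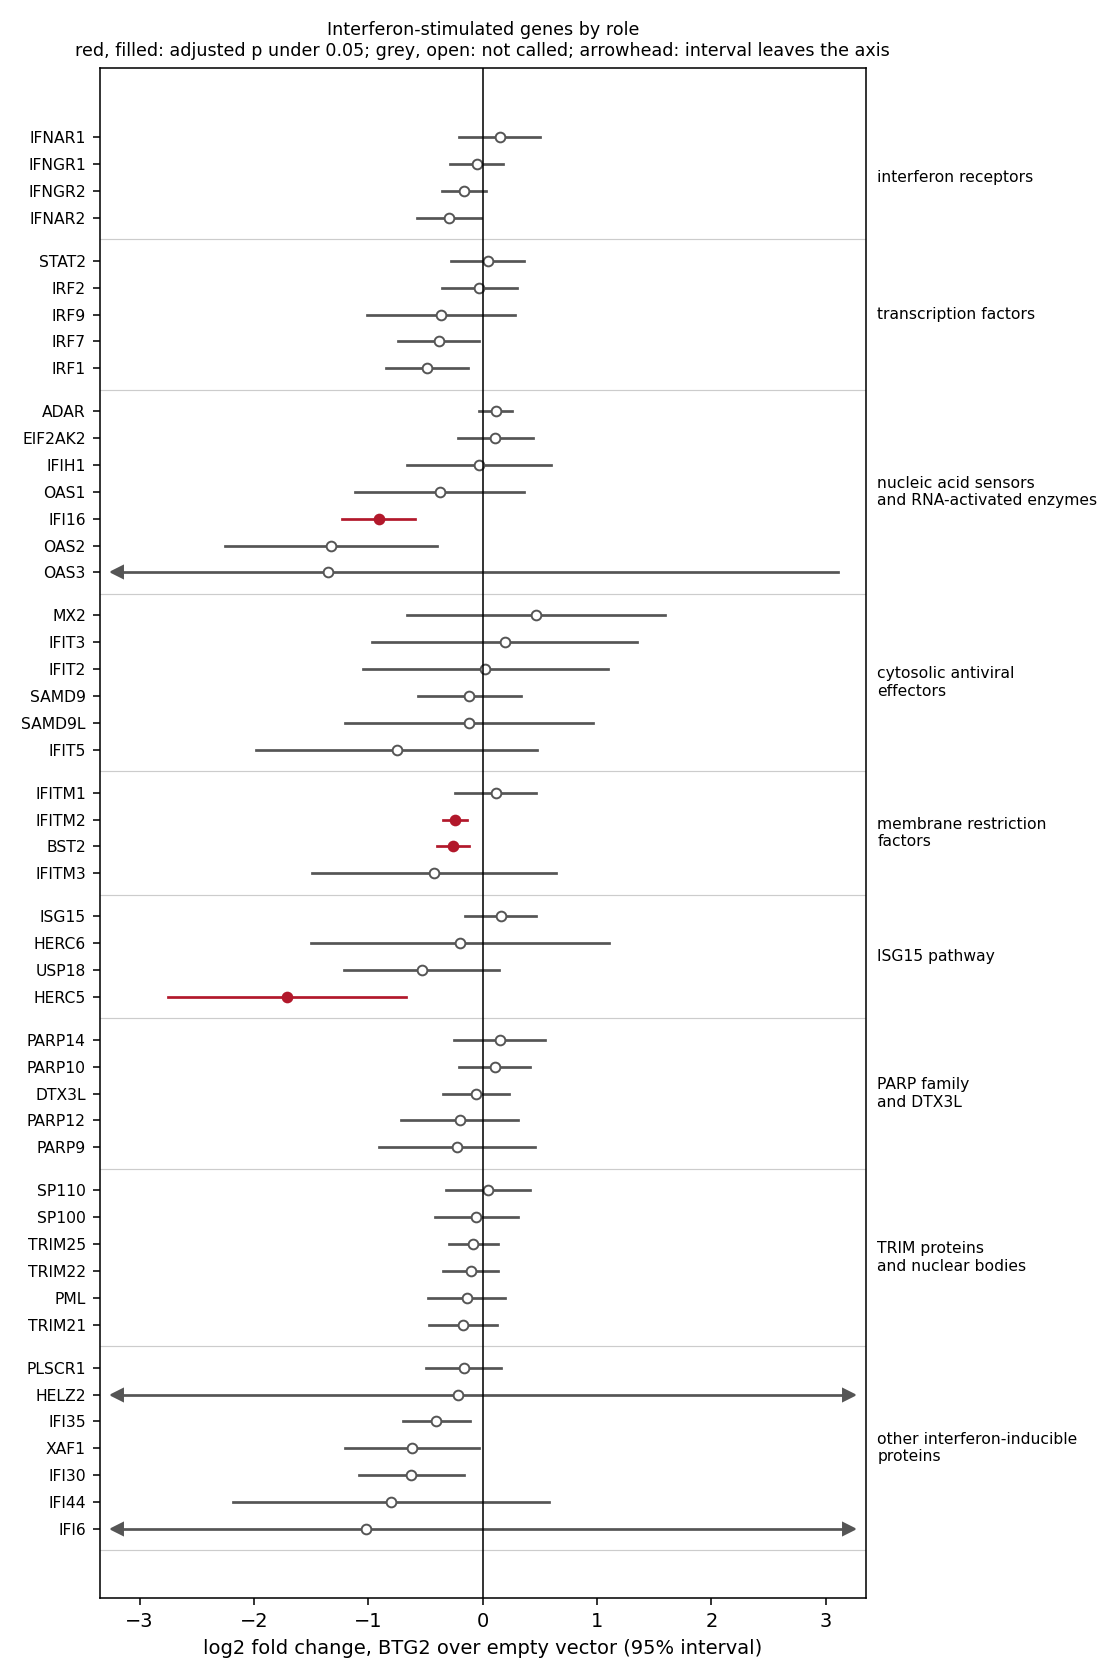
Log2 fold change of each of the 48 listed interferon-stimulated genes (x axis, BTG2 over empty vector) with its 95% interval from the authors' standard error, grouped by role. Filled red points are the 4 genes with an adjusted p under 0.05, all lower with BTG2, and open grey points are the 44 others. Arrowheads mark the intervals of OAS3, IFI6 and HELZ2, which leave the axis.

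The receptors were not called. In the authors' deposited table the log2 fold change was 0.15 (SE 0.18) for IFNAR1 and -0.29 (SE 0.14, adjusted p = 0.241) for IFNAR2. The authors' deposited table gives -0.05 (SE 0.12) for IFNGR1, the ligand-binding chain of the interferon gamma receptor, and -0.16 (SE 0.10) for IFNGR2, its signalling chain. Mean counts were 161 and 246 for the type I pair and 603 and 593 for the gamma pair. The intervals reached from -0.57 to -0.02 for IFNAR2 and from -0.29 to 0.18 for IFNGR1, so a change of IFNGR1 by 0.5 in either direction lay outside its interval. Exons of IFNAR2 overlap those of IL10RB-DT on the opposite strand over 1803 bases, and those of IFNGR2 overlap TMEM50B over 380 bases. The sources used here do not say whether counting used the strand.

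Among the transcription factors IRF1 and IRF7, both themselves induced by interferon, had the lowest values, and neither was called. IRF1, an activator induced by interferon gamma, stood at a log2 fold change of -0.49 (SE 0.18, adjusted p = 0.0830) by the authors' deposited table. Its exons share 1716 bases with IRF1-AS1 on the opposite strand, for which the authors' deposited table gives -0.69 (adjusted p = 0.141) at a mean count of 65.3. IRF7, the factor that amplifies type I interferon production, stood at -0.39 (SE 0.18, adjusted p = 0.221) by the authors' deposited table. IRF9, the DNA-binding subunit of ISGF3, stood at -0.36 (SE 0.33), its partner STAT2 at 0.04 (SE 0.16) and the antagonist IRF2 at -0.03 (SE 0.17) by the authors' deposited table. The interval of STAT2 ran from -0.28 to 0.36, and that of IRF9, at a mean count of 78.4, from -1.01 to 0.28.

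IFI16 had the smallest adjusted p of all the members. It senses DNA in the nucleus and the cytosol and belongs to the PYHIN family, and its gene spans bases 158999968 to 159055155 of chromosome 1 on the plus strand in GENCODE release 29 on GRCh38. At a mean count of 191 it fell, with a log2 fold change of -0.91 (SE 0.16, adjusted p = 1.62e-06) by the authors' deposited table, to 0.532 of the empty vector level. Its interval ran from -1.23 to -0.59. The other sensors and RNA-activated enzymes were not called. IFIH1, the cytosolic sensor MDA5 of long double-stranded RNA, stood at -0.03 (SE 0.32) by the authors' deposited table. The RNA-dependent kinase EIF2AK2, known as PKR, stood at 0.11 (SE 0.17), and the RNA-editing enzyme ADAR at 0.11 (SE 0.07) by the authors' deposited table. ADAR was the third most abundant member by mean count (974), and its interval from -0.03 to 0.26 was among the narrowest.

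The oligoadenylate synthetases, which make the second messenger of RNase L on binding double-stranded RNA, were all below 0 and scarce. OAS2 had a log2 fold change of -1.32 (SE 0.47, adjusted p = 0.0590) at a mean count of 24.4 by the authors' deposited table. OAS1 stood at -0.37 (SE 0.38) and OAS3 at -1.35 (SE 2.27), at mean counts of 37.5 and 13.8 by the authors' deposited table. The SE of OAS3 was 3.58 times the median SE of the 200 genes nearest in mean count. Its value therefore says little, since its interval ran from -5.81 to 3.10. The 3 genes lie next to each other on chromosome 12, from 112906777 to 113011723.

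The cytosolic antiviral effectors showed no common direction, with 3 negative and 3 positive values among the 6 listed. IFIT2 and IFIT3, which bind viral RNA in a complex, stood at log2 fold changes of 0.02 (SE 0.54) and 0.19 (SE 0.59), and IFIT5 at -0.75 (SE 0.63) by the authors' deposited table. MX2, a dynamin-like GTPase that blocks nuclear import of lentiviral capsids, stood at 0.47 (SE 0.58) by the authors' deposited table, the highest value of any member. SAMD9 and SAMD9L, restriction factors of poxviruses, both stood at -0.12 (SE 0.23 and 0.55) by the authors' deposited table. Apart from SAMD9, at 107, these genes had mean counts from 16.5 to 23.0. Changes of under 1.57 on the log2 scale could not be called for any of those 5.

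The membrane restriction factors held 2 of the 4 falls, and these were the 2 most abundant members. IFITM2, which sits in endosomal membranes and hinders the fusion of enveloped viruses, fell, with a log2 fold change of -0.25 (SE 0.05, adjusted p = 0.000150) at a mean count of 2119 by the authors' deposited table. BST2, the tetherin that holds budding virions at the cell surface, fell as well, with one of -0.26 (SE 0.07, adjusted p = 0.00455) at a mean count of 1369 by the authors' deposited table. These were small changes measured precisely: BTG2 libraries held 0.844 of the empty vector level of IFITM2 and 0.835 of that of BST2. IFITM1, the family member at the plasma membrane, stood at 0.12 (SE 0.18) and IFITM3, the endosomal relative closest to IFITM2, at -0.43 (SE 0.54) by the authors' deposited table. The intervals of IFITM1, from -0.24 to 0.47, and of IFITM3, from -1.49 to 0.64, overlap that of IFITM2, from -0.35 to -0.14, and the differences between them were not tested.

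IFITM2 and IFITM3 are near copies, and IFITM1 is a more distant one, which limits how their levels can be separated. Their coding sequences of 396 bases in IFITM2 and 399 in IFITM3 were 93.2% identical in GENCODE release 29. IFITM1, with 375 bases, was 66.4% identical to IFITM2 (290 of 437 aligned columns). Columns with a gap count as different, which lowers this share. Of the stretches of 31 bases in the IFITM2 transcript, 19.3% also occurred in IFITM3, and 8.36% of those in the IFITM1 transcript occurred in IFITM2. Annotated exons of IFITM2 and IFITM1 also overlap on the same strand over 351 bases, on chromosome 11 (307631 to 315272 and 313506 to 315272). How reads of the shared stretches were assigned was not given in the sources used here.

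In the ISG15 pathway the ligase HERC5 fell while the modifier ISG15 was not called. HERC5 attaches the ubiquitin-like protein ISG15 to newly made proteins. It fell, with a log2 fold change of -1.71 (SE 0.53, adjusted p = 0.0204) by the authors' deposited table, to 0.306 of the empty vector level, with an interval from -2.75 to -0.67. This was the largest absolute value of any member and rests on a mean count of 20.6. At that count a change had to reach 1.53 to be called. ISG15 stood at 0.16 (SE 0.16) at a mean count of 222 by the authors' deposited table, with an interval from -0.15 to 0.47. USP18, which removes ISG15 and also restrains IFNAR2, stood at -0.53 (SE 0.35), and HERC6, the neighbour of HERC5 on chromosome 4, at -0.20 (SE 0.66) by the authors' deposited table. The intervals of HERC5 and ISG15 do not overlap, but their difference was not tested.

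The PARP and DTX3L group and the TRIM and nuclear body group held 0 calls in 11 genes, with values from -0.22 to 0.15. PARP9 and DTX3L, which form an ADP-ribosylating ubiquitin ligase complex, stood at log2 fold changes of -0.22 (SE 0.35) and -0.06 (SE 0.15) by the authors' deposited table. The mono-ADP-ribosyltransferases PARP10, PARP12 and PARP14 stood at 0.10 (SE 0.16), -0.20 (SE 0.26) and 0.15 (SE 0.20) by the authors' deposited table. TRIM22 stood at -0.11 (SE 0.12), TRIM25, a ubiquitin ligase of the RIG-I pathway, at -0.08 (SE 0.11) and TRIM21, the cytosolic antibody receptor, at -0.17 (SE 0.15) by the authors' deposited table. PML, the scaffold of nuclear bodies, stood at -0.14 (SE 0.17), and its partners SP100 and SP110 at -0.06 (SE 0.18) and 0.05 (SE 0.19) by the authors' deposited table. All 6 of the TRIM and nuclear body genes had mean counts from 152 to 438, and each interval lay within 0.5 of 0.

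The remaining 7 inducible proteins all had negative log2 fold changes, from -1.02 to -0.17, with a median of -0.62, and 0 were called. IFI30, the lysosomal thiol reductase that opens disulfide bonds of antigens for MHC class II, stood at -0.62 (SE 0.23, adjusted p = 0.0808) by the authors' deposited table. It shares 997 exon bases on the same strand with AC007192.1, which the authors' deposited table lists at -0.96 (adjusted p = 0.177). IFI35 stood at -0.41 (SE 0.15, adjusted p = 0.0694) and XAF1, an antagonist of the apoptosis inhibitor XIAP, at -0.62 (SE 0.30, adjusted p = 0.236) by the authors' deposited table. IFI44 stood at -0.81 (SE 0.70), and PLSCR1, a phospholipid scramblase, at -0.17 (SE 0.17) by the authors' deposited table. IFI6, a mitochondrial survival protein, stood at -1.02 (SE 2.76) and the helicase HELZ2 at -0.21 (SE 4.57) by the authors' deposited table. For IFI6 and HELZ2 the SE was 7.85 and 14.6 times the median of their 200 neighbours in mean count (43.7 and 55.7), so neither value measures a change. Such an SE of 2 or more was found in 268 of all genes, and among members only in IFI6, HELZ2 and OAS3.

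**Figure D2:**
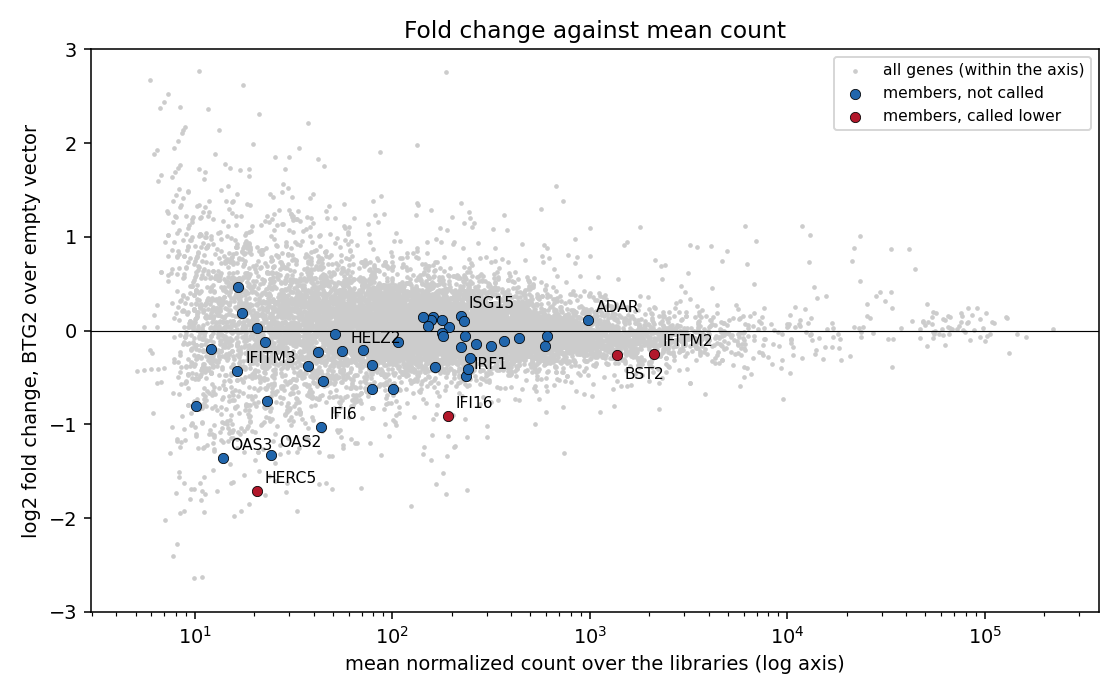
Log2 fold change (y axis, BTG2 over empty vector) against the mean normalized count over the libraries (x axis, log scale) for all genes in grey and for the 48 members in colour. The members called lower, in red, are IFITM2 and BST2 at the right, IFI16 in the middle and HERC5 at a mean count of 20.6, and 47 genes beyond 3 on the y axis are not shown.

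Precision set what could be seen. The smallest absolute test statistic that passed was 2.88, so the median member had to change by 0.54 on the log2 scale to be called, and 14 of 48 could not be called at a change of 1. For 19 members the whole interval lay within 0.5 of 0, and for 29 within 1. The intervals of ADAR, IFNGR1, TRIM25 and TRIM22 reached no lower than -0.35 and no higher than 0.26. Scaled by the length of the longest coding transcript, IFITM2 (2375 counts per kb), BST2 (1344), IFNGR2 (340) and ISG15 (312) were the most abundant members. OAS3 (2.05 counts per kb) was the scarcest. The scaling fits short fragments, and whether the values come from short or long reads was not given in the sources used here.

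Promoters were compared because interferon signalling acts there and because 2 of the genes that fell carry their motifs. The sequences are from RefSeq on GRCh38.p14, which gave a promoter for 37 of the 48 listed members, from 250 bases before the transcription start to 50 after it. The ISRE core was searched on both strands as GAAA, any 2 bases and GAAA again, and GAS as TTCNNNGAA, which reads alike on both. The 150 bases before the start are shown for IFI16, BST2 and HERC5, which fell, and for ISG15, IFITM1 and IFITM3, which were not called. Each is written 5′ to 3′ along the gene, with ISRE core and GAS matches in capitals.

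IFI16, chr1:159008841-159008990, plus strand: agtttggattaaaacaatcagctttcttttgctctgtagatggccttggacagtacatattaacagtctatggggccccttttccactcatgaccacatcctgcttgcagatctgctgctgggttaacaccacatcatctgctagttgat
BST2, chr19:17405631-17405780, minus strand: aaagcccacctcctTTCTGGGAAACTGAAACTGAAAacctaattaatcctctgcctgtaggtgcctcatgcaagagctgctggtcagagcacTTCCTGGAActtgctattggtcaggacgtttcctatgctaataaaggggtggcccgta
HERC5, chr4:88456969-88457118, plus strand: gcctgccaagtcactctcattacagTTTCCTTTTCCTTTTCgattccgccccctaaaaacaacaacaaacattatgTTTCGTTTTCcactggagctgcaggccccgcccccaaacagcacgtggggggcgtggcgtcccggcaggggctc
ISG15, chr1:1013347-1013496, plus strand: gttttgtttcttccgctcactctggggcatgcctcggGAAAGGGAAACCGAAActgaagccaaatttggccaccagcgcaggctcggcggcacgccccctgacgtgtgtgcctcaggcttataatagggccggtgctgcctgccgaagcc
IFITM1, chr11:313890-314039, plus strand: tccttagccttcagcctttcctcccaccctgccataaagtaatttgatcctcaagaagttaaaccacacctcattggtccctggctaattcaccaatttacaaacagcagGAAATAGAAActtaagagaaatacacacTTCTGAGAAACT
IFITM3, chr11:320861-321010, minus strand: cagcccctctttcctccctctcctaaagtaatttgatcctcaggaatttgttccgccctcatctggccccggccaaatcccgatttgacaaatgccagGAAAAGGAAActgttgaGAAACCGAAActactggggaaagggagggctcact

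In BST2 a GAS match at -136 from the start runs into a pair of overlapping ISRE cores at -130 and -124, and a second GAS match stands alone at -58. In HERC5 a pair of overlapping ISRE cores at -125 and -119 and a single one at -74 lie on the opposite strand, so they read as TTTC runs. ISG15 carries the same kind of overlapping pair at -113 and -107. IFITM1 has ISRE cores at -40 and -6, the second overlapping a GAS match at -12 and running past the start, and IFITM3 has ISRE cores at -52 and -35. IFI16, shown at 1 of its 2 starts in the table, has no match at either, which says only that these letters are not in those windows. Of the promoters shown, those with an overlapping pair of ISRE cores belonged to genes at log2 fold changes of -0.26 (BST2), -1.71 (HERC5) and 0.16 (ISG15) by the authors' deposited table. Among promoters not shown, IFIH1 has such a pair at -159 and -153, and TRIM21 has one past the start at 18 and 24. Neither gene was called, at -0.03 for IFIH1 and -0.17 for TRIM21 by the authors' deposited table.

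Over the 37 members 19 (51.4%) had an ISRE core and 9 (24.3%) a GAS match at 1 start or more, against 4.38% and 9.38% of all 27305 genes with a promoter. Counted by promoter, 3.57% of all 35116 held an ISRE core and 7.66% a GAS match. In the members, 5 ISRE cores overlapped a GAS match, counting members without a row in the deposited table. The 19 members with an ISRE core had a median log2 fold change of -0.17, with 14 negative and 2 called lower. The 18 without had a median of -0.18, with 14 negative and 1 called lower. The 9 members with a GAS match had a median of -0.26, with 6 negative and 1 called lower. That median is the value of BST2, the called gene, and the GAS and ISRE groups share members. None of these differences was tested, and IFITM2 was not among the 37 members. Over all listed genes with a promoter the 361 with an ISRE core had a median of -0.03, with 25 lower and 11 higher. The 8666 without had a median of -0.01, with 385 lower and 266 higher. The 757 listed genes with a GAS match had a median of -0.02, with 34 lower and 22 higher.

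**Figure D3:**
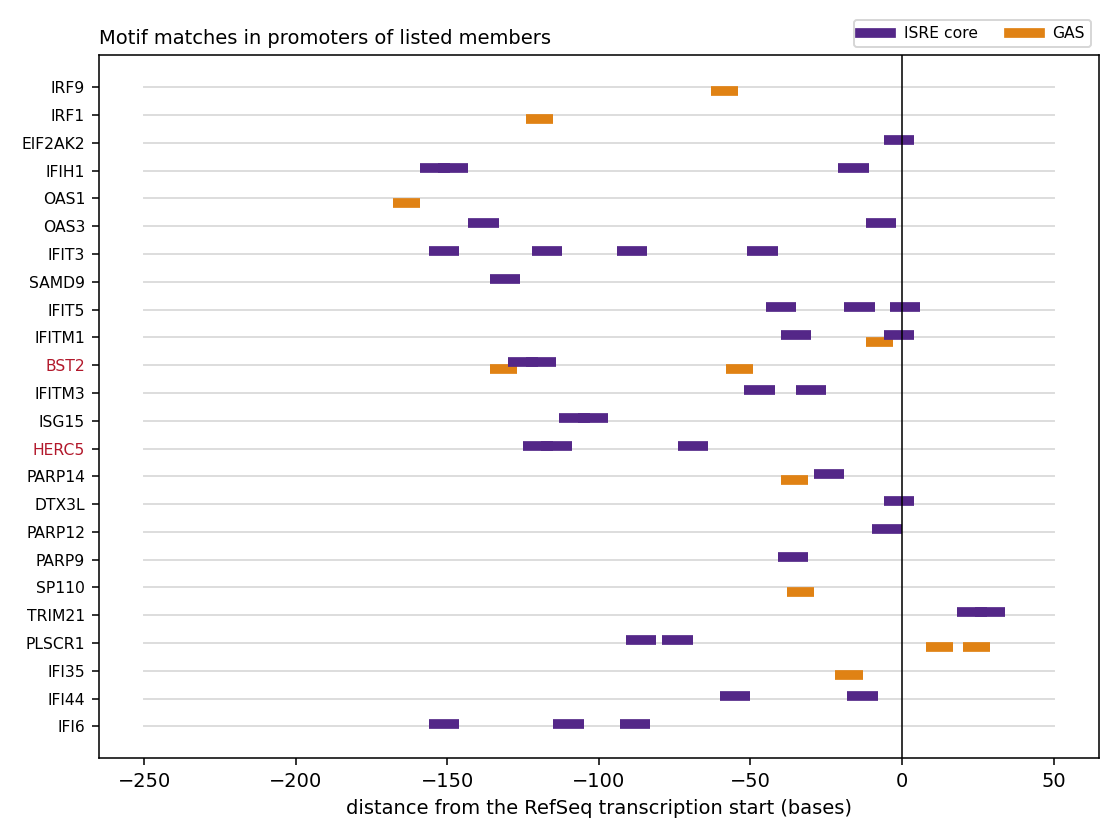
Positions of ISRE core (purple) and GAS (orange) matches in the promoters of listed members that hold at least 1, drawn by distance in bases from the RefSeq transcription start (x axis), with matches at all starts of a gene on 1 line. Names in red are genes called lower, BST2 and HERC5, whose matches lie among those of genes that were not called.

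Transcript structure was compared because BTG2 acts on mRNA through the poly(A) tail. The 48 members had a median 3′ UTR length of 616 bases in GENCODE release 29, against 959 over 10484 listed coding genes. All 4 genes that fell had 3′ UTRs below that median, of 227 bases in IFITM2, 254 in IFI16, 285 in HERC5 and 403 in BST2. Of the members 31 lay at or below 959 bases, with a median log2 fold change of -0.21 and 4 called lower, and 17 lay above it, with a median of -0.11 and 0 called lower. Over all genes the same split gave medians of -0.04 and 0.01, with 324 of 5244 and 181 of 5240 called lower. The members' split thus runs the same way as that of all genes, and it was not tested.

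Other genes of the pathway were read from lists written from textbook knowledge, but with earlier results of these data known. Of 10 interferon genes, IFNB1 and IFNG among them, 0 were listed in the authors' deposited table. Of 15 listed signalling genes 0 were called, and 7 values were negative and 8 positive, with a median log2 fold change of 0.04. The inhibitor SOCS1 stood at -0.30 (SE 0.17, adjusted p = 0.381), the shared cytokine receptor chain IL10RB at -0.20 (SE 0.12), the adaptor CRKL at 0.17 (SE 0.14) and the inhibitor CISH at -0.12 (SE 0.11) by the authors' deposited table. Of 22 sensing and induction genes 0 were called, with a median of -0.04. SAMHD1, the nucleotide hydrolase that starves reverse transcription, stood at -0.20 (SE 0.09, adjusted p = 0.193) and the DNA sensor CGAS at -0.30 (SE 0.16) by the authors' deposited table. ZC3HAV1, an antiviral RNA-binding protein, stood at 0.23 (SE 0.14) and the RNA sensor RIGI at -0.57 (SE 0.40) by the authors' deposited table. In these 2 lists the deposited test passed 0 genes, and at an unadjusted p under 0.05 it passed only SAMHD1.

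Of 40 further interferon-stimulated genes 2 fell and 1 rose, with a median log2 fold change of -0.18 beside the -0.17 of the members. The share called, 7.5%, was near the 8.11% of all genes, and the share called lower, 5%, near the 4.47%. At an unadjusted p under 0.05, 9 of the 40 (22.5%) were lower and 1 higher. The same limit gave 22.9% lower among the members, and 9.64% lower and 7.92% higher over all genes. CXCL10, the chemokine that draws activated T cells, fell by 1.25 (SE 0.33, adjusted p = 0.00311) at a mean count of 56.0 by the authors' deposited table. LY6E, a lipid-anchored surface protein, fell by 0.22 (SE 0.06, adjusted p = 0.00207) at a mean count of 2351 by the authors' deposited table. LAP3, a leucine aminopeptidase, rose by 0.57 (SE 0.16, adjusted p = 0.00658) by the authors' deposited table. The inflammatory protease CASP1, at -0.30 (SE 0.13, adjusted p = 0.152) by the authors' deposited table, came next by test statistic.

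In the list of interferon-induced antigen processing genes, which also holds WARS1, 7 of 13 fell (53.8%) and 0 rose, with a median of -0.19. Over all genes 4.47% were lower, and 7.6% of those at or above the median mean count. With fold changes recentred on the median abundant gene 6 of the 13 were lower. WARS1, a tryptophanyl-tRNA synthetase that interferon gamma induces, is not itself part of antigen processing. It fell by 0.50 (SE 0.08) and the peptide-trimming ERAP2 by 0.64 (SE 0.19) by the authors' deposited table. The proteasome activator subunits PSME1 and PSME2 fell by 0.24 (SE 0.05) and 0.27 (SE 0.07), and the immunoproteasome subunits PSMB8 and PSMB10 by 0.19 (SE 0.06) and 0.19 (SE 0.05) by the authors' deposited table. B2M, the light chain of MHC class I, fell by 0.17 (SE 0.04) at a mean count of 16908 by the authors' deposited table. The median of this list was like that of all the members, and its SEs were smaller (median 0.12 against 0.19). Its mean counts were higher, however, with a median of 436 against 155. The 25 members at or above the table's median mean count had a median of only -0.08 (median SE 0.16), with 12% called lower. The lists were not tested against each other. Since this list, too, was chosen with earlier results of these data known, its share is given as a description.

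**Figure D4:**
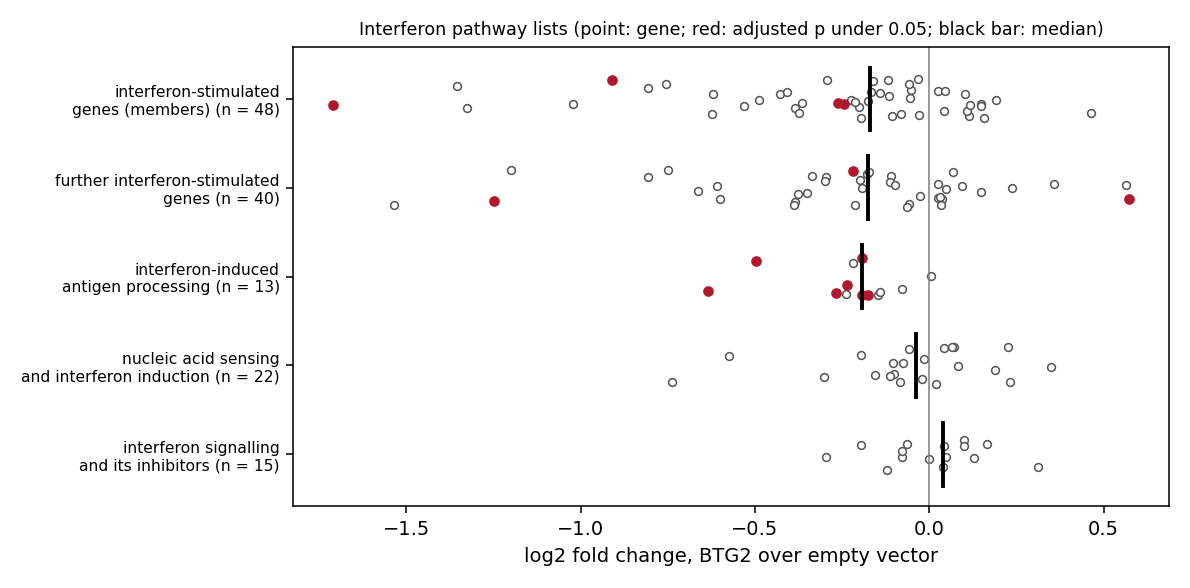
Log2 fold changes (x axis, BTG2 over empty vector) of single genes in the members and in 4 other interferon pathway lists, with filled red points for an adjusted p under 0.05 and a black bar at each median. Medians lie at -0.17, -0.18 and -0.19 in the upper 3 lists and at -0.04 and 0.04 in the lower 2.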

How the data were processed

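Gene expression was measured in 4 libraries, assigned to 2 groups of 2 from the sample titles. The submitters' processing notes name minimap2 and hg38, with no setting or role. The labels' protocols describe a directional short-fragment kit, whereas the series title speaks of long reads. The only table analysed holds the authors' own comparison. Its mean column is a signal, the deposited mean normalized count over the libraries. The log2 fold changes and standard errors are as deposited by the authors. The deposited score is the fold change over its standard error (largest difference 2.72e-07). Each deposited adjusted p-value matched a Benjamini-Hochberg adjustment of the deposited p-values within 1.48e-06. The program, normalization, annotation and filter were not given in the sources used here.

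Counts per library were not analysed here, so no test was added and the authors' adjusted p under 0.05 made the calls. Members and lists were chosen with earlier results of these data known. The rule for names covered called members, the 10 of highest mean count and the 5 of largest absolute fold change. It also covered called genes and the 4 largest absolute statistics of other lists. Log2 fold change and SE are given for each, and mean count and adjusted p for only some. Other members are given by value. A signalling gene of those lists is not reported here. Alternatives were limits of the adjusted p at 0.01 and 0.1, a minimum change of 0.5 on the log2 scale under the null, recentring on the median abundant gene, and abundant genes alone, meaning those not below the median mean count. Keeping genes with a standard error under 2 was added after seeing the data. Calling was tested on simulated fold changes drawn with the deposited standard errors, which cannot check those standard errors. Motif searches were tested on short written sequences with known answers. Transcripts came from GENCODE release 29 on GRCh38, as the complete coding transcript with the longest coding sequence, and 11398 listed genes matched by identifier. Promoters came from RefSeq on GRCh38.p14, matched by symbol. Computation used Python 3.11.15, numpy 2.4.6, pandas 2.3.3, scipy 1.17.1, Biopython 1.88 and matplotlib 3.10.9.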

Additional observations from a re-analysis of the deposited data

How the results depend on the processing

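The finding of 4 members lower and 0 higher held under recentring on the median abundant gene (a shift of -0.03 on the log2 scale), with the same 4 genes. No member changed sign in a called value. Keeping genes with a standard error under 2 gave the same 4, but that limit could not remove them, since their standard errors ran from 0.05 to 0.53. Among members at a mean count of at least 50, 3 were called lower. Among abundant genes alone 4 of 25 members were lower, with IFI35 (adjusted p = 0.0415 by Benjamini-Hochberg adjustment of the authors' deposited p-values) and without HERC5, which is not abundant. Over all 5799 abundant genes that setting gave 401 higher and 521 lower. There CXCL10, too, is left out, and 1 of the further interferon-stimulated genes was lower. At an adjusted p under 0.01 HERC5 was lost and 3 members remained, and all genes gave 281 calls upward and 341 downward. With the limit at 0.1 OAS2, IFI35, IFI30 and IRF1 were added, for 8 members lower. Against an absolute change of 0.5 the members gave 0 calls, as did the further interferon-stimulated genes in either direction and the antigen processing list. Over all genes that setting gave 42 higher and 39 lower. The median of the members lay between -0.17 and -0.08 as a median and at -0.16 as a weighted mean. No paired analysis was possible because values per library were not analysed here, and for the same reason leaving out replicates, DESeq2, edgeR and filters on counts were not run. Neither the depth of a library nor the part any single library plays in a value is known.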
